A study of Mus musculus with 26 samples.

Results

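Promoters that carried the repressive histone mark H3K27me3 in wild type (WT) mouse embryonic fibroblasts (MEFs) without a peak of its enzyme EZH2 were examined. They were chosen by the WT peak lists, from peaks of H3K27me3 WT Rep1 under 20 kb that overlapped a peak of WT Rep2 and lay within 2 kb of the transcription start site (TSS) of a protein-coding gene. The 2 kb on each side of that TSS had to be free of EZH2 peaks in both WT lists. Of 36011 H3K27me3 peaks in WT Rep1, 28117 were under 20 kb and shared with Rep2. Of these, 1487 peaks at 1262 TSS fulfilled the rule, out of 21938 protein-coding TSS. The same peaks marked 2807 protein-coding TSS in all, of which 1360 had an EZH2 peak in both WT lists and 185 in a single list. The 1360 TSS with EZH2 in both lists, which had 1394 peaks, serve below as the promoters with EZH2. Since WT values chose the members, the WT values of H3K27me3 and EZH2 at these promoters are given as a description and not as a result.

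The study compared WT cells, a parental female MEF line, with ATRXΔRBR cells. The latter are a single female clone in which CRISPR, with guide RNAs and transient puromycin selection, removed the RNA binding region (RBR) of the chromatin remodeler ATRX in frame from the endogenous gene. Another group, labelled ATRX KD, consists of MEFs given an shRNA against ATRX and selected with puromycin. All groups were grown in the same serum-containing medium. CUT&RUN, which releases the fragments bound by an antibody so that enriched regions can be called as peaks, gave 2 lists each for EZH2 and H3K27me3 in the 3 groups and for ATRX in WT and ATRXΔRBR. RNA-Seq gave 2 libraries per group with 9051712 to 21723597 estimated counts. With 2 replicates a group, p-values measure the spread between these libraries. All ATRXΔRBR values come from the same clone, so effects of the deletion and other differences of that clone cannot be told apart.

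Several facts about the libraries touch the values below. Atrx itself was at 634 and 435 CPM in WT and at 411 and 549 CPM in the libraries labelled ATRX KD, a log2 difference of -0.15 ± 0.21 (SE, adjusted p = 0.604 by edgeR's quasi-likelihood test). The RNA thus gave no check of that label, and these libraries are named by it throughout. The paper assessed its knockdown lines by western blot and describes ATRX as depleted in them. Protein was not measured in these data. The H3K27me3 lists labelled ATRX KD held 7241 and 6336 peaks against 33105 to 38832 in WT and ATRXΔRBR, and their largest −log10 q-values were 170 and 173 against 17.2 to 24.5. Peak lists carry no read depth, and absence of a peak is not absence of the mark. Of 8 fibroblast markers, Col1a1, Col1a2, Vim, Fn1 and S100a4 were each at 612 TPM or more in every library and Pdgfrb at 54.1 TPM or more, whereas Thy1 was at 0 TPM in all 6. The collagen gene Col3a1 was at 28.1 and 32.2 TPM in WT, 20.3 and 15.8 TPM in ATRXΔRBR (log2 fold change -0.91, adjusted p = 0.0225, a call lost without WT Rep1 or ATRXΔRBR Rep2) and 0.36 and 0.75 TPM in the libraries labelled ATRX KD (-6.99, adjusted p = 2.44e-05). Of the 7 fibroblast markers tested, 1 rose and 1 fell in ATRXΔRBR by edgeR's test at an adjusted p under 0.05. In the libraries labelled ATRX KD 3 rose and 1 fell. S100a4 rose in both comparisons (log2 fold change 1.31 and 0.62), and Fn1 and Pdgfrb in the latter (0.99 and 0.51). There, the calls of S100a4 and Pdgfrb were lost without ATRX KD Rep1 and without ATRX KD Rep2. The 14 markers of other cell types summed to 6.34 and 11.3 TPM in WT, 18.4 and 15.5 TPM in ATRXΔRBR and 13.1 and 11.9 TPM in the libraries labelled ATRX KD. Cd68 was the highest of them in every library, at 4.55 and 8.66 TPM in WT and 10.1 and 9.93 TPM in ATRXΔRBR. In the libraries labelled ATRX KD it was at 12.1 and 11.5 TPM. The endothelial gene Pecam1 was at 0.93 and 1.58 TPM in WT, 5.22 and 3.01 TPM in ATRXΔRBR and 0 in both libraries labelled ATRX KD. Cdh5, the other endothelial gene listed, was at 0 TPM in all 6. Of the 4 markers of other types tested, Des and Pecam1 rose in ATRXΔRBR (log2 fold change 2.79 and 1.48). In the libraries labelled ATRX KD, Cdh1 fell (-2.99), as did Pecam1 (at least 7.06-fold against a floor of 3 counts per library). Of these calls, only the fall of Pecam1 held without each single library in turn.

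H3K27me3 is deposited by Polycomb repressive complex 2 (PRC2), in which EZH2 or EZH1 is the catalytic subunit and EED, SUZ12 and RBBP4/7 are core partners. PRC2 is best known for its recruitment to CpG islands of developmental regulators, and the mark spreads from such sites and is also found over broad, gene-poor or silent domains. Large families of tissue-restricted genes, such as the olfactory and vomeronasal receptors expressed in sensory neurons, lie in clusters and are silent in fibroblasts.

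Promoter sequences of 6 of these genes are shown because their base content, described below, sets the group apart from the promoters with EZH2. Each spans 250 bases before to 50 bases after the start in the RefSeq annotation of GRCm38.p6, is written 5′ to 3′ along the gene, and has every CpG dinucleotide in capitals. Med10 was among the members with the highest TPM in WT, Tunar and Neurod6 had strong H3K27me3 peaks that were absent from ATRXΔRBR, Pth1r and Nr5a2 had the strongest peaks present in all lists, and Vmn2r83 is a pheromone receptor. Neurod6 and Vmn2r83 were added after their values were seen.
Med10: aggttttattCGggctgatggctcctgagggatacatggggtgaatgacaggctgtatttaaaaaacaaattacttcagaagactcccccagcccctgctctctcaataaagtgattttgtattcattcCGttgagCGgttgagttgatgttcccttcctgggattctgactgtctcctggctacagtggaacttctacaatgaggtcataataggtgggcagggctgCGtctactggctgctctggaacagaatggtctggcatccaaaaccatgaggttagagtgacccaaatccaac
Tunar: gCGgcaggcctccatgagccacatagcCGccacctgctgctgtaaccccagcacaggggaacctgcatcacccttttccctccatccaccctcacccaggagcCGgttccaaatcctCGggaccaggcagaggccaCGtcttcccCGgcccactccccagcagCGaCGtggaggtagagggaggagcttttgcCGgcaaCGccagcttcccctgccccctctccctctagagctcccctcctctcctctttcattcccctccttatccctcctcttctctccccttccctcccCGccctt
Neurod6: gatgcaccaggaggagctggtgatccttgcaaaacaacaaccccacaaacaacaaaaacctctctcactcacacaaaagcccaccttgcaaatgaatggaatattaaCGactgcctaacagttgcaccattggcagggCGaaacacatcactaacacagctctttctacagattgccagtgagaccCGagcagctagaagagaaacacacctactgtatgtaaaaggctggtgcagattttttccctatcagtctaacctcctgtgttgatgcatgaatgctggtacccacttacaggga
Pth1r: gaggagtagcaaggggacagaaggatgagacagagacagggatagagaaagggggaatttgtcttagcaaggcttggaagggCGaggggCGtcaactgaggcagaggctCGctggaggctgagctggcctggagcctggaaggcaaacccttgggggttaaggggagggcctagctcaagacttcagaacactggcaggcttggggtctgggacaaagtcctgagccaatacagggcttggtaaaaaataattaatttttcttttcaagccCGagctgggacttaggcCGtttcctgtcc
Nr5a2: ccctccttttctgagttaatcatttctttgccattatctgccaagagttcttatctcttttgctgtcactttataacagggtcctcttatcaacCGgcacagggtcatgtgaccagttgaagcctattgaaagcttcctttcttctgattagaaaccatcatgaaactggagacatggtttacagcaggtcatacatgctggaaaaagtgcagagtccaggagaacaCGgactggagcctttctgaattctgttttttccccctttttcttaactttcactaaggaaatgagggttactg
Vmn2r83: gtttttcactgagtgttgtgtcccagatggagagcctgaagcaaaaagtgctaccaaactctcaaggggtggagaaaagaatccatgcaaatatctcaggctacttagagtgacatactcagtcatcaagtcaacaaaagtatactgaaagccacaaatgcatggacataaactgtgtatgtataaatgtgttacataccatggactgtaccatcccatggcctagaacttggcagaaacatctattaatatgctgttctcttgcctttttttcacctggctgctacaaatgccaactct
The sequence of Med10 was taken from chr13:69802120-69802419 (plus strand), with 4 CpG, and that of Neurod6 from chr6:55681214-55681513 (minus strand), with 3. The Pth1r promoter at chr9:110747096-110747395 (minus strand) held 5 CpG, and the Nr5a2 promoter at chr1:136960399-136960698 (minus strand) held 2, and TATAAA on the opposite strand. The Vmn2r83 promoter at chr10:79468708-79469007 (plus strand) held no CpG, and TATAAA on the strand of the gene. Tunar, at chr12:105336344-105336643 (plus strand), had 11 CpG, but its RefSeq start lies 2724 bp downstream of the GENCODE start used by the rule and within a WT EZH2 peak. Tunar is therefore a member by 1 of its annotated starts only.

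The peaks at these promoters were mostly narrow and weak. Their median width was 2429 bp (quartiles 1004.5 and 5279.5) and their median fold enrichment 3.78, with a maximum of 7.96. The peaks of promoters with EZH2 were wider, with a median of 5497.5 bp and a fold enrichment of 4.61, and the median of all shared peaks was 1623 bp and 3.69. The peak covered the TSS itself at 610 of the 1262 TSS (48.3%), compared with 1040 (76.5%) of the promoters with EZH2. Members often neighboured each other: 678 TSS (53.7%) lay in runs of at least 2 adjacent protein-coding genes that were both members, the longest run held 12 genes, and 60 peaks served more than 1 member TSS. The nearest WT EZH2 peak was at a median distance of 37184.5 bp (quartiles 14067.8 and 79804.2). At 102 TSS (8.08%) an EZH2 peak lay elsewhere in the same H3K27me3 peak, outside the TSS window. The X chromosome held 61 member TSS (4.83%), close to its 4.32% of all protein-coding TSS.

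Some genes lay just inside or outside the limits of the rule. Hcst and Tunar were 2002 and 2005 bp from the nearest WT EZH2 peak and were kept, and Btnl1 was left out at 1969 bp. The widest member peak measured 19841 bp, while the narrowest peak left out by the width limit measured 20188 bp, 1 of 66 such peaks. Nts was 1991 bp from its H3K27me3 peak, and Tymp was left out at 2003 bp.

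The most numerous family among the members was that of the chemosensory receptors. It contributed 215 of the 1262 genes (17.0%), compared with 6.75% of all protein-coding genes and none of the 1360 promoters with EZH2. They comprised 168 of 1135 olfactory receptor genes (Olfr), 29 of 209 vomeronasal type 1 receptors (Vmn1r), 11 of 122 type 2 receptors (Vmn2r) and 7 of 15 trace amine-associated receptors (Taar). Olfactory receptor clusters differed in their share: 16 of 24 Olfr genes on chromosome 4 and 15 of 28 on chromosome 6 were members, but only 12 of 294 on chromosome 2 and 13 of 244 on chromosome 7. Vmn2r83, Vmn1r235 and Olfr1416 had the strongest peaks of the family, with fold enrichments of 6.36, 5.38 and 5.36.

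Other families of tissue-restricted genes followed. Receptors and markers of immune cells supplied 56 members (4.44%, against 2.06% of protein-coding genes and 1.40% of promoters with EZH2), led by Slamf9, Nlrp1a and the class Ib histocompatibility gene H2-M10.5. Cytochrome P450, UGT and related detoxifying enzymes supplied 35 (2.77%, 1.14% and 0.515%), among them Cyp2d11 and Cyp2d22, whose starts share a 16060 bp peak. Keratins (10 members, with Krt71 of the hair follicle, Krt82 and Krt90), keratin-associated proteins of hair (11, with Krtap5-1, Krtap5-4 and Krtap5-2) and defensins with other antimicrobial peptides (11, with Bpifa6, Defb26 and Bpifa3) had no gene among the promoters with EZH2. Placental, germline and X-cluster genes, a list that includes many predicted Gm genes, made up 113 members (8.95%), near their 8.15% of all protein-coding genes. Proteases and their inhibitors (28) included Cpb2, a carboxypeptidase of plasma, and the airway protease Tmprss11d.

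Developmental regulators were fewer here than among the promoters with EZH2. Homeobox and Pax factors numbered 9 members against 39, the Fox, Sox, Gata, T-box and bHLH factors 10 against 40, and Wnt, TGF-beta, FGF, Hedgehog and Notch signals 4 against 35. The members nevertheless included Pou2f3, Lhx9, Dbx2 and Hoxd1 among the homeobox genes and Sox17, Tbx4, Neurod6 and Sp6 among the other factors. Ion channels (31 against 51), other G protein-coupled receptors (31 against 46) and solute carriers (31 against 31) were found in both groups. A further 625 members (49.5%) belonged to no listed family. Alb, which encodes serum albumin and served as a hepatocyte marker, was itself a member with an 11121 bp peak and 0 TPM in every library. These family shares describe the selected promoters and were not tested.

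**Figure D1:**
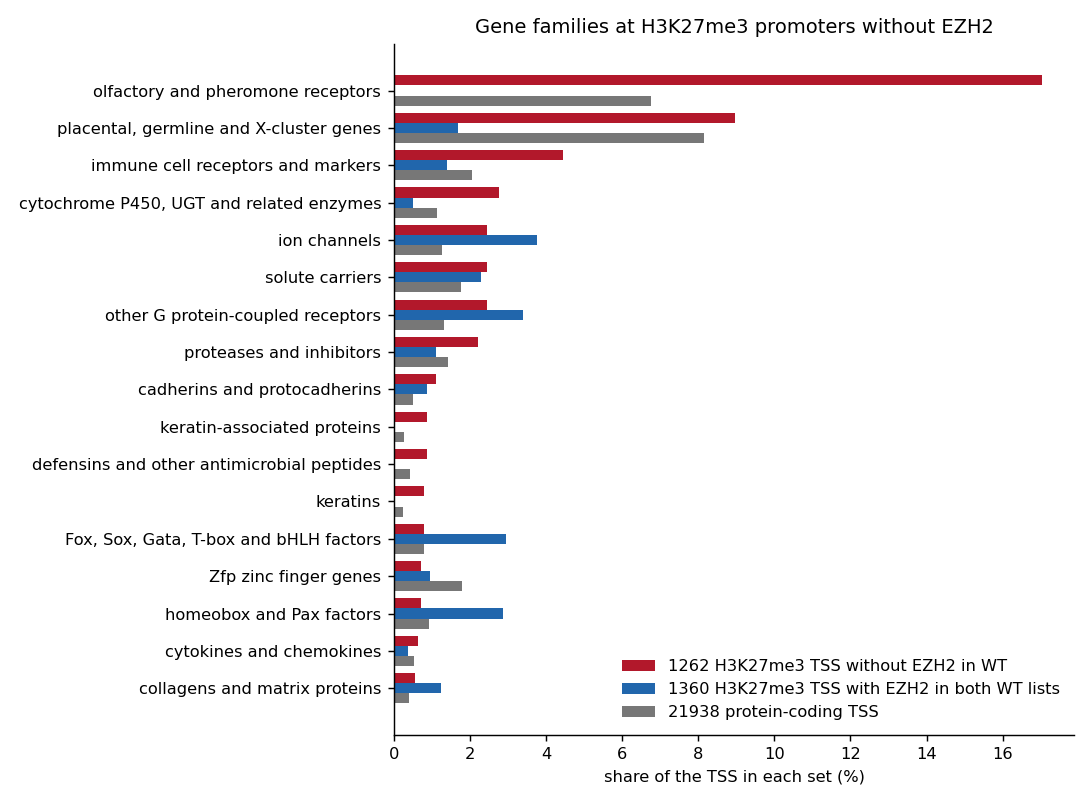
Share of TSS (%, horizontal axis) that belong to each gene family, for the 1262 H3K27me3 TSS without EZH2 in WT (red), the 1360 with EZH2 in both WT lists (blue) and all 21938 protein-coding TSS (grey). Olfactory and pheromone receptors make up 17.0% of the red set and none of the blue set, while homeobox and Fox, Sox, Gata, T-box and bHLH factors are larger shares of the blue set.

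The promoters without EZH2 were poor in CpG. Over 500 bp on each side of the TSS, their median CpG observed over expected ratio was 0.208 (quartiles 0.126 and 0.381), compared with 0.699 at promoters with EZH2 and 0.552 at all protein-coding TSS. Median GC contents were 48.5%, 61.6% and 54.7%. A promoter was called CpG-rich at a GC content of at least 50% and a ratio of at least 0.6, which 101 members (8.0%) fulfilled, against 69.4% of promoters with EZH2 and 44.4% of protein-coding TSS. No chemosensory member was CpG-rich (median ratio 0.113), and the share among the other members was 9.65%. Soft-masked repeats covered a median of 11.4% of the bases at members and 7.54% at promoters with EZH2. The base content of protein-coding TSS without EZH2, whatever their H3K27me3, was not compared.

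The 300-base RefSeq promoters showed the same contrast. A promoter was matched for 936 of the 1262 members, and 178 of these RefSeq starts lay over 2 kb from the start used by the rule. The median number of CpG was 3.5 in members, 21 in 1007 promoters with EZH2 and 14 in 16538 protein-coding genes. The letters TATAAA, searched for on both strands, occurred in 195 (20.8%), 7.65% and 12.9% of these promoters. Such a match describes the window only and is not a bound site.

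**Figure D2:**
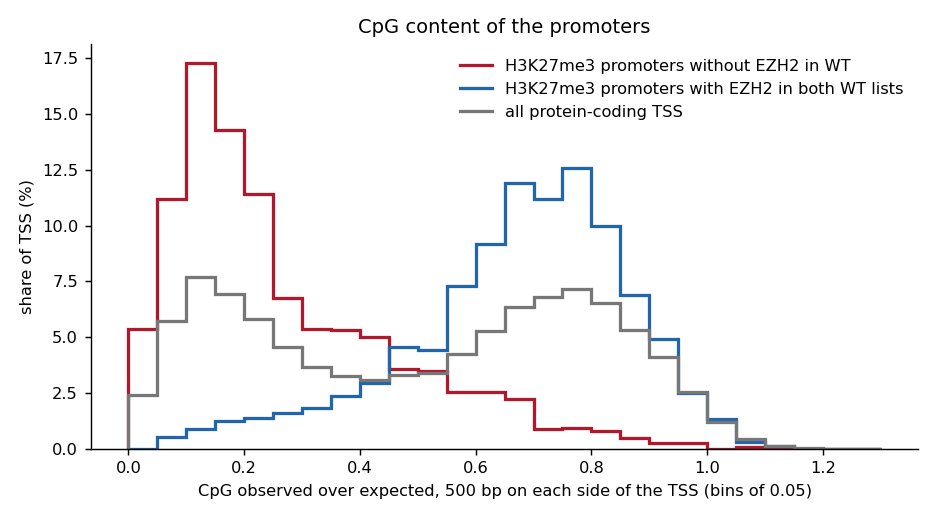
Distribution of the CpG observed over expected ratio (horizontal axis, bins of 0.05) in 500 bp on each side of the TSS, as a share of TSS (%, vertical axis), for promoters without EZH2 (red), with EZH2 in both WT lists (blue) and all protein-coding TSS (grey). The red line peaks below 0.25, with a median of 0.208, and the blue line between 0.6 and 0.8, with a median of 0.699.

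The fate of the mark in ATRXΔRBR was examined in lists that the rule did not use. A peak of H3K27me3 ATRXΔRBR Rep1 overlapped 995 of the 1487 member peaks (66.9%) and a peak of Rep2 overlapped 922 (62.0%), a mean of 64.5% ± 3.47 (SD, n = 2 lists). Promoters with EZH2 were overlapped at 69.1% and 66.7%, and all shared peaks at 58.3% and 52.6%. In both ATRXΔRBR lists the members thus lay slightly below the promoters with EZH2 and above the shared peaks as a whole. Both lists lacked 458 of the member peaks (30.8%), while the share over all 28117 shared peaks was 38.4%. The bases of member peaks covered were 64.2% and 58.4%.

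The rule required a peak in both WT lists, so a reference within WT was needed. When TSS were selected on WT Rep1 alone (1484 TSS), 91.0% had an H3K27me3 peak in WT Rep2 and 62.9% and 57.7% in the ATRXΔRBR lists. When they were selected on WT Rep2 alone (1662 TSS), 83.2% had one in WT Rep1 and 59.9% and 54.8% in ATRXΔRBR. The ATRXΔRBR shares were below that of the other WT list in both selections. With 2 lists a group, an exact permutation test cannot reach a threshold.

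In the lists labelled ATRX KD, few of the member peaks had a counterpart. Peaks of Rep1 overlapped 252 (16.9%) and peaks of Rep2 217 (14.6%), a mean of 15.8% ± 1.66 (SD, n = 2 lists), and both lists lacked 1159 (77.9%) against 82.5% of all shared peaks. Promoters with EZH2 were overlapped at 58.5% and 55.2% in the same lists, and all shared peaks at 13.1% and 11.8%. Members minus promoters with EZH2 came to -2.17 and -4.71 percentage points in the ATRXΔRBR lists and to -41.5 and -40.6 points in those labelled ATRX KD. The mean of the 4 differences, -22.3 points, pools 2 unlike groups and describes neither. Over all widths together, the members were lower in 4 of 4 lists (exact two-sided sign-flip permutation test, p = 0.13, the smallest that 4 lists allow). The test could thus not reach a threshold, and it treats lists of the same group as independent. Only the shorter lists labelled ATRX KD, of the 4, gave a difference of over 40 points, and the part of list length in it was not tested.

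**Figure D3:**
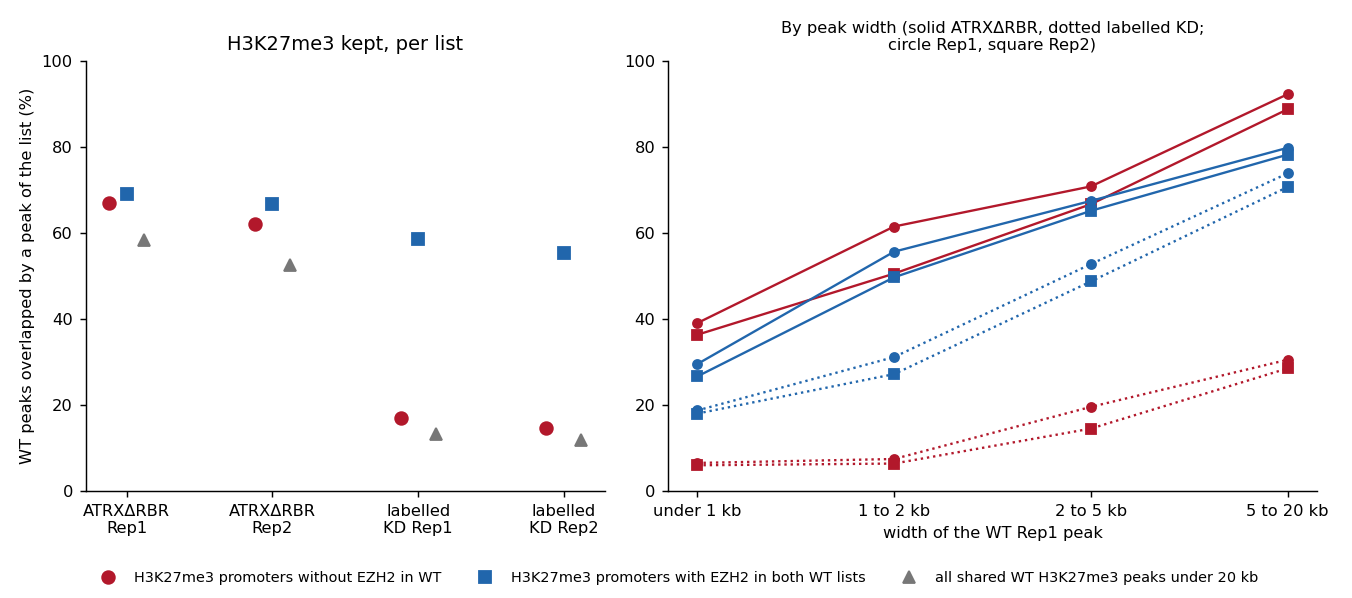
Share of WT H3K27me3 peaks (%, vertical axis) overlapped by at least 1 bp by a peak of each list not used for the selection, for members (red circles), promoters with EZH2 (blue squares) and all shared peaks (grey triangles), left, and by width of the WT Rep1 peak, right. Members and promoters with EZH2 lie within 5 points of each other in ATRXΔRBR (66.9 and 62.0% against 69.1 and 66.7%) and over 40 points apart in the lists labelled ATRX KD, and the shares rise with width.

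Wider peaks were more often overlapped. Among members under 1 kb, 39.0% and 36.3% had a counterpart in the ATRXΔRBR lists, and among those of at least 5 kb 92.3% and 88.8%. Promoters with EZH2 went from 29.5% and 26.6% to 79.8% and 78.2% over the same widths, so that at equal width the members were not below them. In the lists labelled ATRX KD the wide members reached 30.5% and 28.5%, against 73.8% and 70.7% of wide promoters with EZH2. A wider peak offers more bases for an overlap, and the part of that in the trend was not tested.

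The CpG-rich members had a counterpart less often than the rest in ATRXΔRBR and more often in the libraries labelled ATRX KD, as counted over all widths. In ATRXΔRBR, the peak of 44.6% and 38.6% of the 101 CpG-rich members was overlapped, compared with 74.0% and 69.8% of the 1161 others. In the lists labelled ATRX KD these shares were 26.7% and 33.7% against 20.2% and 16.4%. CpG-rich members had narrower peaks, with a median of 2034 against 3114 bp. Under 2 kb, 16.3% and 12.2% of 49 CpG-rich members had a counterpart in ATRXΔRBR against 56.7% and 51.1% of 425 others, and between 5 and 20 kb 87.5% and 75% of 24 against 93.2% and 90.3% of 382. The CpG-rich members were lower in both ATRXΔRBR lists at each of the 3 widths, by more than the difference between the lists under 5 kb. In the lists labelled ATRX KD they were higher in both lists under 5 kb, but between 5 and 20 kb they were lower in Rep1 (25% against 31.9%) and higher in Rep2 (37.5% against 28.8%). The selection used no ATRXΔRBR list, and the difference was not tested because peaks are not replicates.

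**Figure D4:**
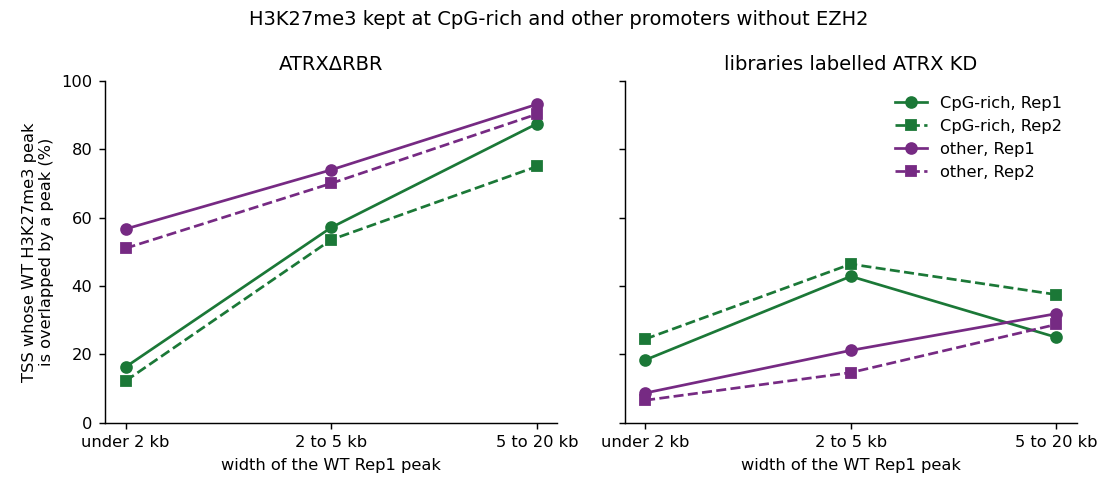
Share of member TSS whose WT H3K27me3 peak is overlapped by a peak (%, vertical axis) by width of the WT Rep1 peak, for CpG-rich members (green) and others (purple), in ATRXΔRBR (left) and the libraries labelled ATRX KD (right), with Rep1 as circles and Rep2 as squares. Under 2 kb the CpG-rich members stand at 16.3 and 12.2% in ATRXΔRBR against 56.7 and 51.1% of the others, and at 18.4 and 24.5% against 8.71 and 6.59% in the libraries labelled ATRX KD.

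Families varied in the same measure, with few genes in most of them. Defensins and other antimicrobial peptides kept a peak at 10 and 11 of 11 genes in the ATRXΔRBR lists, collagens and matrix proteins such as Lamc3, Col22a1 and Matn1 at 7 and 6 of 7, and P450 and UGT genes at 29 and 26 of 35. Ion channels, among them Kcng4 and the GABA receptor subunit Gabrg3, were at the lower end with 13 and 12 of 31. The 215 chemosensory genes were at 160 and 143 (74.4% and 66.5%), near the 69.9% and 67.0% of the 625 members of no listed family. These family shares count TSS with any of their peaks overlapped and are not comparable with the shares per peak above. In the lists labelled ATRX KD, none of 28 proteases had a counterpart in either list, whereas 5 of 9 homeobox genes and 5 of 9 Zfp zinc finger genes had one in each. By chromosome, the shares in ATRXΔRBR Rep1 ranged from 55.7% of 61 TSS on chromosome X to 87.7% of 57 on chromosome 8, and those in Rep2 from 42.5% of 87 on chromosome 6 to 88.6% of 70 on chromosome 15. Member peaks on the X chromosome were at 51.3% and 46.3%, below the 67.8% and 62.9% on autosomes.

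Among the strongest member peaks without a counterpart in either ATRXΔRBR list were the following. Tunar, a transcript of neural cells, had a peak of 6542 bp with a fold enrichment of 5.41 in WT Rep1. Neurod6, a neuronal bHLH factor, followed with 14065 bp and 5.17, and Dbx2, a homeobox gene of the neural tube, with 7382 bp and 4.99. Raver2, an RNA-binding protein gene, Amer2, a regulator of Wnt signalling, Frem2, a basement membrane protein gene, and Nxph1, which encodes a neurexin ligand, had fold enrichments of 4.90, 4.89, 4.89 and 4.84. Of these 7, Neurod6, Dbx2, Raver2, Amer2 and Frem2 had a counterpart in both lists labelled ATRX KD, Tunar in Rep2 only, and Nxph1 in neither. Their RNA stayed at or near 0, with Raver2 the highest at 0.14 and 0.34 TPM in WT and 0.11 and 0.07 TPM in ATRXΔRBR.

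Members with H3K27me3 in all 6 lists included the strongest peak of the group, that of Pth1r, the parathyroid hormone receptor, with 10655 bp and a fold enrichment of 7.96. The nuclear receptors Nr5a2 and Nr5a1 had peaks of 19480 and 8837 bp with 7.27 and 6.23. Fam241b (6.996), the transcription factor gene Sp6 (6.58), Mcts2 (6.45), Plpp7 (6.36) and Vmn2r83 (6.36) completed the first 8. Of these 8 genes, 5 were at 0.55 TPM or less in every library. Pth1r was at 1.74 and 1.41 TPM in WT, 0.31 and 0.45 TPM in ATRXΔRBR and 1.14 and 1.69 TPM in the libraries labelled ATRX KD. Fam241b was at 7.10 and 8.26 TPM in WT and fell to 1.60 and 1.05 TPM in ATRXΔRBR (log2 fold change -3.07 ± 0.41, adjusted p = 0.00426). In the libraries labelled ATRX KD it rose to 17.0 and 19.6 TPM (0.98 ± 0.23, adjusted p = 0.0167), a call lost without ATRX KD Rep2 (adjusted p = 0.140). Mcts2 was at 20.2 and 17.3 TPM in WT. It is an intronless copy of Mcts1 that lies inside H13, so its reads may be shared with these genes and its level is uncertain.

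EZH2 was then examined at the members in the lists outside the rule. A peak lay in the window of 87 of 1262 TSS in EZH2 ATRXΔRBR Rep1 (6.89%) and of none in Rep2. The replicates thus differed, and no member had EZH2 in both ATRXΔRBR lists. Of all protein-coding TSS, 49.2% and 35.0% had an EZH2 peak in the ATRXΔRBR lists and 50.6% and 46.8% in the WT lists. The members were chosen for the lack of such a peak in WT. The Rep1 list stood apart in other respects: it held 22418 peaks against 11408 in Rep2, 29.7% of its peaks overlapped H3K27me3 of the same replicate against 19.4%, and 62.5% of the promoters with EZH2 had a peak in it against 84.9%. Between WT lists, TSS selected on Rep1 alone had EZH2 at 3.64% in WT Rep2 and 7.14% in ATRXΔRBR Rep1, and TSS selected on Rep2 alone at 8.72% in WT Rep1 and 8.12% in ATRXΔRBR Rep1. The ATRXΔRBR Rep1 list was thus above the WT list left out in one selection and below it in the other. Of the 87 TSS, 83 (95.4%) had H3K27me3 in ATRXΔRBR Rep1, against 69.9% of the other members. The 87 also had wider WT peaks (median 4108 against 2944 bp) and were less often CpG-rich (3.45% against 8.34%). The part of width and CpG content in the difference was not tested. Chemosensory genes made up 18 of the 87 (20.7%), against 17.0% of all members. The strongest H3K27me3 peaks among the 87 were those of Pth1r, Vmn2r83, Tchhl1, Slc47a1, Zfp54, Vmn1r235, Enam and Olfr453.

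In the EZH2 lists labelled ATRX KD, 14 and 13 members (1.11% and 1.03%) had a peak, against 19.4% and 24.8% of all protein-coding TSS. Among these members, 5 had a peak in both lists. These were Shisa3, Daam2, Pkib and the divergent pair Spata48 and Zpbp, whose starts share a 1385 bp H3K27me3 peak. Shisa3, Spata48 and Zpbp had no H3K27me3 counterpart in any of the 4 lists outside WT. ATRX peaks were rare at the 1262 members, with 1 and 2 TSS in the WT lists and 2 and 2 in ATRXΔRBR. Of the 1360 promoters with EZH2, 44 and 9 had an ATRX peak in the WT lists and 34 and 12 in ATRXΔRBR. Of all 21938 protein-coding TSS, 2643 and 1251 had one in the WT lists and 2976 and 1077 in ATRXΔRBR. In each of these lists, members and promoters with EZH2 were thus both below the share over all protein-coding TSS. The members with an ATRX peak were Tpte, Olfr1412, Zfp119b, Col22a1, Olfr1324 and Syt16, which were named after their values were seen.

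The member genes were silent with few exceptions. TPM, a level per gene length and library total, was listed for 1256 of the 1262 genes, and the median was 0 in all 6 libraries. In WT, 1021 (81.3%) and 1017 (81.0%) were at 0, and 72 (5.73%) and 78 (6.21%) reached 1 TPM. At promoters with EZH2 the median was 0.15 and 0.19 TPM and 31.7% and 32.3% reached 1 TPM, while 51.8% and 52.4% of all protein-coding genes did. Levels of protein-coding genes without EZH2, whatever their H3K27me3, were not compared. No count was assigned in any library to 845 members (67.3%). In bulk RNA, fewer cells that express a gene and less RNA per cell cannot be told apart.

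The 10 highest members in WT were the following. Cyb5a, which encodes cytochrome b5, was at 256 and 315 TPM, the Mediator subunit gene Med10 at 136 and 134, and Cox19, needed for cytochrome c oxidase assembly, at 122 and 106. Nfic, a transcription factor gene, was at 128 and 74.6 TPM, Gnl2, a nucleolar GTPase gene, at 81.5 and 95.0, and Palld, which encodes the actin-associated palladin, at 87.7 and 59.9. Atp2c1 (63.7 and 81.7), B230118H07Rik (65.3 and 56.0), Dgkz (64.1 and 49.4) and Lrif1 (36.8 and 40.0) followed. All 10 had another annotated start over 2 kb away that carried no H3K27me3 in WT, and all 10 had a WT EZH2 peak at another start. The H3K27me3 of the rule thus lay at the outermost annotated start of these genes, and RNA-Seq counts per gene do not separate the starts.

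This held more widely for the expressed members. Of the 76 members at 1 TPM or more in the mean of WT, 42 (55.3%) had another start without H3K27me3, and 34 (44.7%) had EZH2 at another start. Of the 1180 members below 1 TPM, these were 193 (16.4%) and 63 (5.34%). Of the 26 members at 10 TPM or more, 19 (73.1%) had each.

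RNA-Seq of ATRXΔRBR against WT asked whether these genes differed between the clone with the RBR deleted and the parental line. Of 16287 genes with more than 10 counts over the 4 libraries, 125 were members, and the remaining 1131 of the 1256 were too low to test. By edgeR's quasi-likelihood test at an adjusted p under 0.05, 4 members rose (3.20%, against 2.79% of all genes tested) and 18 fell (14.4%, against 4.08%). Their median log2 fold change was -0.37, against -0.02 over all genes tested. Promoters with EZH2 had 39 higher and 155 lower of 646 tested, with a median of -0.38. A gene could pass the filter through its WT counts alone, and 6 of the 18 members that fell had no count in ATRXΔRBR. The 14.4% thus includes genes that only WT brought into the test. Members that passed the filter are the expressed minority and not the members as a whole, and with at least 10 counts in every library the median of the 55 left was 0.00. No member at 0 counts in both WT libraries had 3 or more in each ATRXΔRBR library.

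Ifi27l2a, an interferon-inducible gene, rose most. It had 7 and 2 counts in WT and 100 and 224 in ATRXΔRBR (2.29 and 0.80 TPM, and 52.3 and 73.2 TPM), a log2 fold change of 5.20 ± 0.47 (SE, adjusted p = 0.000844), while its H3K27me3 peak had a counterpart in every list. Sgsm1, a regulator of Rab GTPases with a CpG-rich promoter and no H3K27me3 in either ATRXΔRBR list, was at 0.86 and 1.38 TPM in WT and 22.7 and 21.4 TPM in ATRXΔRBR (log2 fold change 4.66 ± 0.25, adjusted p = 0.000216). Sgsm1 has another annotated start over 2 kb away that carried no H3K27me3 in WT. Phactr1, which encodes a regulator of actin and protein phosphatase 1, rose by 1.498 ± 0.249 on the log2 scale (adjusted p = 0.0106). Kantr rose by 0.90 ± 0.18 (adjusted p = 0.0256), a call that was lost without WT Rep1 (adjusted p = 0.0660) or without ATRXΔRBR Rep1 (adjusted p = 0.0601). These were the 4 members that rose. The groups did not overlap in any of them, but this also held for 69 of the 103 members that were tested and not called.

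Among the 18 members that fell, several had no count in ATRXΔRBR. Sytl4, which acts in the docking of secretory granules, had 55 and 41 counts in WT and 0 in both ATRXΔRBR libraries, at least 14.2-fold lower against a floor of 3 counts per library (adjusted p = 0.00233). On the same terms the zinc finger gene Zfp612 (34 and 29 counts in WT) was at least 9.36-fold lower (adjusted p = 0.00423), Slc35f2 (22 and 30) at least 7.81-fold (adjusted p = 0.00735) and Slc37a1 (21 and 13) at least 5.01-fold (adjusted p = 0.0145). Rab15, a GTPase of endosomal recycling, had 12 and 13 counts in WT and none in ATRXΔRBR (at least 3.73-fold, adjusted p = 0.0217). The potassium channel gene Kcnma1 went from 10 and 6 to none (at least 2.36-fold, adjusted p = 0.0493), a call lost without ATRXΔRBR Rep2 (adjusted p = 0.110). These genes were low in WT already, between 0.29 and 2.21 TPM.

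The other 2 named genes kept a single count. 9330182L06Rik had 148 counts over both WT libraries and 1 over both of ATRXΔRBR, a ratio of 137 after scaling (counting interval 24.2 to 5442, adjusted p = 0.00177). Glrb, the beta subunit of the glycine receptor, had 99 and 1, a ratio of 91.5 (16.1 to 3652, adjusted p = 0.00260). A counterpart of the H3K27me3 peak was in both ATRXΔRBR lists for 11 of the 18 members that fell, 2 of the 4 that rose and 67 of the 103 that passed neither way. Another start without H3K27me3 in WT was annotated for 12 of the 18, 2 of the 4 and 50 of the 103. Counts per gene do not separate the starts.

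In the libraries labelled ATRX KD, 127 members were among 16748 genes tested. Of these, 25 rose (19.7%, against 15.2% of all genes tested) and 30 fell (23.6%, against 17.8%), with a median log2 fold change of -0.24 against -0.02, which became 0.11 with at least 10 counts in every library. Both shares were near those of all genes. Here too a gene could pass the filter through 1 group alone. No count in the libraries labelled ATRX KD was left for 9 of the 30 that fell, and 2 of the 25 that rose had none in WT. The shares thus include genes that only 1 group brought into the test. Without ATRX KD Rep2 the number of members called was 35 instead of 55. Both comparisons share the WT libraries, and Atrx did not pass the test in this one. Of the members that rose, 15 of 25 had no H3K27me3 counterpart in either list labelled ATRX KD, as did 16 of the 30 that fell and 42 of the 72 that passed neither way. Another start without H3K27me3 in WT was annotated for 15 of the 25, 16 of the 30 and 36 of the 72.

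Members with the largest decreases were left with few or no counts. Kcnip1, a Kv channel-interacting protein gene with 180 and 222 counts (14.5 and 21.7 TPM) in WT and none in the libraries labelled ATRX KD, was at least 69.5-fold lower (adjusted p = 0.000219). Gng11, a G protein gamma subunit gene, was at least 30.8-fold lower (111 and 70 counts to none, adjusted p = 0.000612), and Tmem45a at least 25.3-fold (73 and 74 to none, adjusted p = 0.000556). Apbb1ip, which links Rap1 to integrin activation, had 615 counts over WT and 3 over the libraries labelled ATRX KD (ratio 253, counting interval 86.1 to 1230, adjusted p = 3.63e-05), and the T-box gene Tbx1 had 210 and 1 (ratio 259, 46.0 to 10279, adjusted p = 0.000294). Glrb had 99 and 1 (ratio 122, 21.4 to 4871, adjusted p = 0.000728). Rab15 (12 and 13 to none) was at least 4.31-fold lower (adjusted p = 0.00808). Insl3, a hormone of Leydig cells that shares its strand and locus with Jak3, was at least 5.10-fold lower (19 and 11 to none, adjusted p = 0.00719), and its counts are uncertain for that overlap.

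In ATRXΔRBR some of these genes were at intermediate levels. Kcnip1 was at 7.16 and 8.05 TPM there (log2 fold change -1.28 ± 0.25, adjusted p = 0.0221) and Apbb1ip at 10.6 and 8.30 TPM (-0.93 ± 0.20, adjusted p = 0.0295), a call that was lost without WT Rep1 (adjusted p = 0.0547), without ATRXΔRBR Rep2 (adjusted p = 0.132) and with the replicate block (adjusted p = 0.0741). Tbx1 was at 17.4 and 23.1 TPM in ATRXΔRBR against 10.2 and 8.09 TPM in WT and did not pass the test (log2 fold change 1.09 ± 0.27, adjusted p = 0.0545).

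The largest increases were in genes that were near 0 in WT. Zpbp, a gene of the sperm acrosome, had no count in WT and 5 and 20 in the libraries labelled ATRX KD (at least 3.05-fold, adjusted p = 0.0154). It is 1 of the 5 members with an EZH2 peak in both lists labelled ATRX KD, and it overlaps genes on either strand. Tnfrsf14, a receptor of the tumour necrosis factor family, went from 0 to 3 and 16 counts (at least 2.22-fold, adjusted p = 0.0271). Gucy1a2, a guanylate cyclase subunit gene, had 1 count over WT and 84 over the libraries labelled ATRX KD (ratio 68.1, 11.9 to 2721, adjusted p = 0.00190), and Fbxw22 had 2 and 37 (ratio 15.0, 3.87 to 128, adjusted p = 0.0248). The actin nucleator gene Cobl rose by 3.88 ± 0.30 on the log2 scale (0.33 and 0.58 to 6.18 and 8.66 TPM, adjusted p = 0.000307), and Sgsm1 by 3.48 ± 0.24 (0.86 and 1.38 to 10.6 and 12.3 TPM, adjusted p = 0.000202). Ap1g2, an adaptor subunit of vesicle transport, rose by 3.54 ± 0.35 (adjusted p = 0.000720), and Rab37, a GTPase of exocytosis, by 3.17 ± 0.50 (adjusted p = 0.00399). Groups that do not overlap were a condition for naming these genes. This also held for 39 of the 72 members that were tested and not called.

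**Figure D5:**
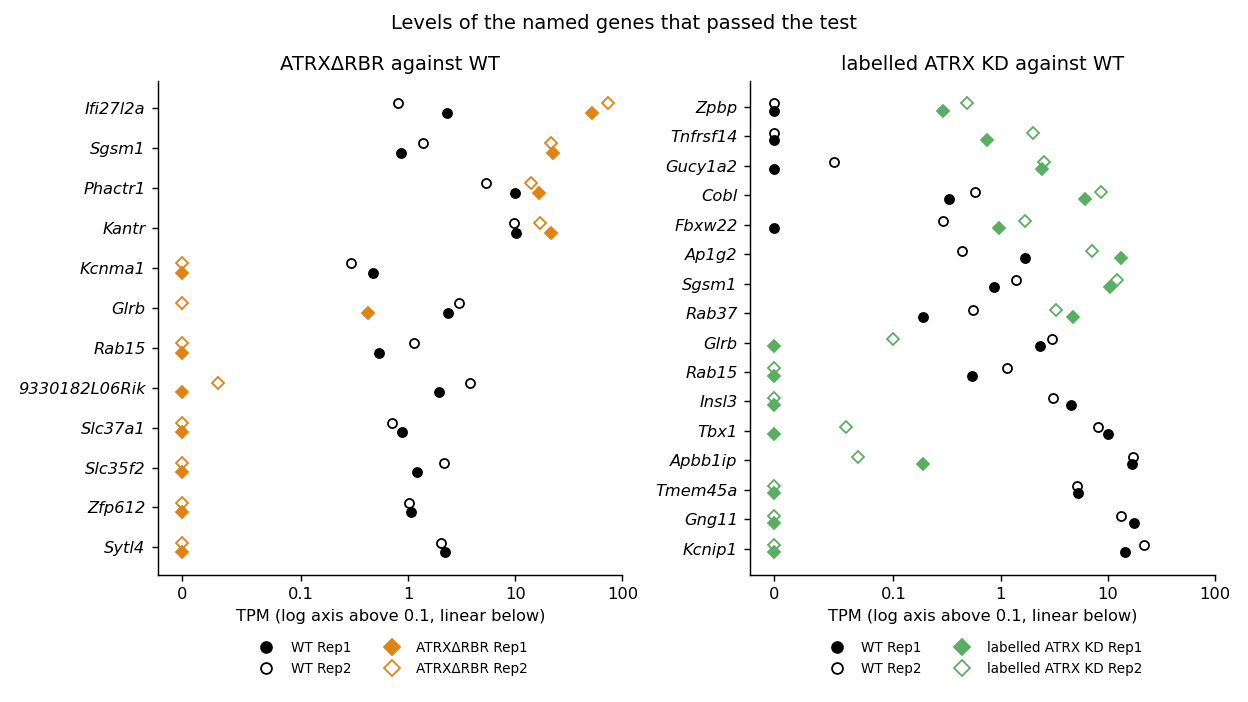
TPM of the named members that passed the test (horizontal axis, logarithmic above 0.1 and linear below) in each WT library (black) and in ATRXΔRBR (orange, left) or the libraries labelled ATRX KD (green, right), with Rep1 filled and Rep2 open. In ATRXΔRBR, Ifi27l2a and Sgsm1 stand above 20 TPM and 6 genes at 0 in both libraries, and on the right Kcnip1, Gng11 and Tmem45a go from above 5 TPM to 0.

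The genes of PRC2 and the H3K27 demethylases were expressed in every group, with 1368 to 1530 TPM summed over 13 genes. Ezh2 was at 204 and 177 TPM in WT, 246 and 206 TPM in ATRXΔRBR and 243 and 236 TPM in the libraries labelled ATRX KD. In ATRXΔRBR 1 of the 13 genes rose and none fell by edgeR's test at an adjusted p under 0.05. This was Ezh1, the alternative catalytic subunit, at 12.3 and 16.5 TPM in WT and 35.2 and 26.5 TPM in ATRXΔRBR (log2 fold change 1.03 ± 0.19, adjusted p = 0.0161). In the libraries labelled ATRX KD, Ezh1, Ezh2 and Phf19 rose and 5 fell, namely Aebp2, Mtf2, Phf1, Eed and Rbbp7. The call of Ezh2 (log2 fold change 0.37 ± 0.11, adjusted p = 0.0433) was lost with DESeq2 (adjusted p = 0.0636), with the replicate block (adjusted p = 0.106), without ATRX KD Rep1 (adjusted p = 0.381) and without ATRX KD Rep2 (adjusted p = 0.309). Those of Phf1, Eed and Rbbp7 were also lost without either of these libraries. The largest decrease was that of the accessory subunit gene Aebp2 (-1.07 ± 0.12, adjusted p = 0.00104).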

How the data were processed

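The 16 CUT&RUN peak lists and 6 RNA-Seq libraries were used, and the IgG libraries were not analysed here. The authors mapped CUT&RUN reads to mm10 with Bowtie2 and called broad peaks in each library separately with MACS2 at a broad cutoff of 0.1. Per peak, the deposited fold enrichment is the mean ratio of reads to local background. The −log10 p-value and −log10 q-value deposited with it were likewise given by MACS2 in the authors' hands. The deposited score is a rounded form of the −log10 q-value and was not used. The depth of the lists is unknown, so individual peaks were compared across lists by overlap alone, and of the q-values only the largest of each H3K27me3 list is set beside the others. For H3K27me3, the study's methods and a supplementary table name different antibodies. For RNA-Seq, the authors aligned with STAR, and the deposited estimated counts and the deposited TPM were computed per gene with RSEM. Totals of 9051712 to 21723597 estimated counts set the precision for low genes.

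Peaks were placed on GENCODE M21 (GRCm38) with the outermost start of each gene and overlaps from 1 bp. A TSS counted as keeping H3K27me3 where a list overlapped any of its member peaks. Estimated counts were rounded, genes with more than 10 counts over the 4 libraries were kept, and edgeR's quasi-likelihood test with TMM and Benjamini-Hochberg adjustment was applied over all genes (threshold 0.05), in the place of the authors' DESeq2, which was an alternative. The labels do not link same-numbered libraries to each other. Peaks, promoters and genes are not replicates and were not tested against each other. The counting intervals of ratios are binomial, and they and the floors of 3 counts cover counting error only.

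The members and the gene lists were chosen with earlier results of these data known. Named genes were the 10 members highest in WT TPM, the 8 called members with the largest fold change in each direction whose groups did not overlap, the 8 strongest peaks absent from both ATRXΔRBR lists and the 8 strongest present in all lists, the 3 strongest of each family, the genes of the marker and PRC2 lists and those nearest the thresholds. One of the genes these rules name is not reported here. A rule for members with EZH2 in both ATRXΔRBR lists named none. Alternatives changed the window, the annotated starts, the gene set, the q-value, the overlap between the WT lists, the WT base list and the width limit, and for RNA-Seq the tool, scaling, filter, libraries and block. The tests were checked on simulated data, where the share of false calls was above the adjusted threshold in both comparisons. R 4.3.3, edgeR 4.0.16, DESeq2 1.42.0, Python 3.11.15, pandas 2.3.3, numpy 2.4.6, scipy 1.17.1 and matplotlib 3.10.9 were used.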

Additional observations from a re-analysis of the deposited data

How the results depend on the processing

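Depth sets the limits: the peak lists carry no depth, and 1131 of the 1256 member genes had too few counts to test in ATRXΔRBR. The median change of members in the libraries labelled ATRX KD turned from lower to higher with a stricter count filter (values below), and at equal width the difference from promoters with EZH2 was positive in the ATRXΔRBR lists. The number of members was 3371 peaks at 3095 TSS with all annotated genes and 831 peaks at 795 TSS with a q-value of at most 0.01, and lay between 1796 and 1987 peaks and between 1484 and 1662 TSS when a WT replicate was left out. H3K27me3 in ATRXΔRBR (64.5%) was 68.2% when WT Rep2 had to overlap at least 50% of the WT Rep1 peak for it to be chosen. That larger overlap was asked between the WT lists only, and overlaps with the ATRXΔRBR lists still counted from 1 bp. The share was 59.3% with the stricter q-value, and 56.9 to 66.9% without 1 list (56.9 and 59.0% without the WT lists of Rep1 and of Rep2). H3K27me3 in the lists labelled ATRX KD (15.8%) was 19.3% with a window of 1 kb, 13.8% without EZH2 in the whole peak, 17.6% with no width limit and 6.38% with the stricter q-value, and 14.5 to 16.9% without 1 list. The mean difference from promoters with EZH2 was between -29.0 and -15.8 points without 1 list, and -3.44 points in the ATRXΔRBR lists alone, which was chosen after seeing the data.

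EZH2 in the lists labelled ATRX KD was 0.960% with the 1 kb window, 0.614% with all genes, 1.15% with the larger overlap, 1.16% for the whole peak, 0.566% with the stricter q-value and 1.03 to 1.38% without 1 list (1.11 and 1.38% without WT Rep2 and Rep1), and EZH2 in ATRXΔRBR 0 to 6.89% without 1 list. ATRX in WT was 0.0457% with the 1 kb window, 0.0485% with all genes and 0.0602 to 0.158% without 1 list (0.0602 and 0.101% without WT Rep1 and Rep2). ATRX in ATRXΔRBR was 0.137% with the 1 kb window, 0.172% with EZH2 excluded at any transcript start, 0.0969% with all genes, 0.133% with the larger overlap, 0.129% for the whole peak, 0.163% with WT Rep2 peaks, 0.149% with no width limit, 0.1249% without chromosome X, 0% with the stricter q-value and 0.150 to 0.202% without 1 list. The share at 1 TPM or more was 3.54% with any transcript start, 4.67% with all genes, 5.50% for the whole peak, 6.56% with the stricter q-value and 5.73 to 7.73% without 1 list (6.09 and 7.73% without WT Rep2 and Rep1). The CpG-rich share was 4.23% with all genes, 10.2% with the stricter q-value, 0.792% over 2 kb on each side and 8.56 to 10.5% without 1 list. The causes of these shifts were not tested.

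For RNA-Seq, member genes called in ATRXΔRBR (22) were 39 with no filter, 7 with at least 10 counts in every library, and 22 to 31 without 1 library. All genes called (1120) were 1979 with no filter, 597 with that filter, 1736 with all 6 libraries in 1 fit, and 1050 to 1523 without 1 library. In the libraries labelled ATRX KD, members called (55) were 24 with at least 10 counts in every library and 35 to 63 without 1 library, with 35 without ATRX KD Rep2. All genes called there (5542) ranged from 3194 without ATRX KD Rep2 and 3520 without ATRX KD Rep1 to 8953 without WT Rep2. The deviations of same-numbered libraries correlated at -0.75 in ATRXΔRBR and -0.18 in the libraries labelled ATRX KD, so the numbers do not pair them. The replicate number as a block gave 25 and 58 members and 1068 and 5796 genes called. The crossed pairing, chosen after seeing the data, gave 63 and 58 members and 5547 and 6494 genes. The median change of the members tested (-0.37 and -0.24) moved to -0.55 and -1.03 with no filter and to 0.00 and 0.11 with at least 10 counts in every library. Of the genes with a printed call, Kantr (adjusted p = 0.0724) and Apbb1ip (adjusted p = 0.0741) in ATRXΔRBR and Ezh2 (adjusted p = 0.106) in the libraries labelled ATRX KD lost it with the replicate block, as did Col3a1 (adjusted p = 0.0651) in ATRXΔRBR, and with DESeq2 Ezh2 (adjusted p = 0.0636), Kcnma1 (adjusted p = 0.146), Tnfrsf14 (adjusted p = 0.0652) and Fbxw22 (adjusted p = 0.0507) did. The rise of Pecam1 in ATRXΔRBR was lost with the replicate block (adjusted p = 0.0584) and with DESeq2 (adjusted p = 0.108). With DESeq2 the calls of Des in ATRXΔRBR (adjusted p = 0.0625) and Cdh1 in the libraries labelled ATRX KD (adjusted p = 0.104) were lost too.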
